A study of Arabidopsis thaliana with 51 samples.

Results

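Roots of Arabidopsis thaliana kept in the dark were compared with hypocotyls kept in the dark, 2 arrays for each organ, 4 of the 51 arrays of the series. The 4 arrays were chosen by their labels alone. Each carried total RNA of the organ in channel 2 and RNA of cultured cells in channel 1, so the reference and the dye are the same on both sides of the comparison. A level is the log2 ratio of organ to cultured cells on an array centred on its median, and a difference is the dark root level minus the dark hypocotyl level, also in log2. The labels give no strain, plant age, growth medium, length of darkness or origin of the cultured cells. They also do not say that the 2 arrays of an organ came from separate plants, so the p-values below measure the spread between arrays, which may be technical. Roots and hypocotyls in light, 2 arrays each against the same kind of reference, are set beside the dark values where they were measured.

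The hypocotyl is the seedling stem between root and cotyledons. In darkness it elongates by cell expansion while its plastids do not green and the cotyledons stay closed. The root takes up water and ions through hairs and forms lignified and suberised barriers around its vascular tissue. Class III peroxidases, secreted haem enzymes that cross-link or loosen walls and take part in lignin and suberin formation, form a large family in plants, many of whose members are expressed in roots. In whole organs, fewer cells of a type and less RNA per cell cannot be told apart.

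In the dark, array-to-array agreement was closer in hypocotyls than in roots. The 2 dark hypocotyl arrays correlated at 0.886 over 23869 probes and the 2 dark root arrays at 0.761 over 25069 probes, while a dark root array correlated with a dark hypocotyl array at 0.716 to 0.724. The probes of an array are not independent, and all arrays share the cultured cell reference. Levels were also spread more widely in dark hypocotyls, with a standard deviation over probes of 1.93 and 1.91, than in dark roots, at 1.64 and 1.59. That the values run organ over cultured cells is likely, not known. It rests on light-harvesting genes such as LHB1B2 and LHCB4.1 having their highest levels in rosette and cauline leaves, and on the further values given below. Were the ratio the other way round on all arrays, every higher and lower below, and every highest and lowest group, would be exchanged. The leaf arrays, the stem arrays and 1 light root array carried the organ in channel 1. Leaf levels alone therefore cannot orient the compared arrays, which carried it in channel 2. The dark cotyledon arrays also carried it in channel 2, and LHB1B2 had a mean level of 7.02 there. The 2 light root arrays, 1 for each channel, had a correlation of 0.75 over 25305 probes, so no reversal was seen between them. Were the ratio reversed only on arrays with the organ in channel 2, dark root and dark hypocotyl would still be exchanged. Ranks over the organ groups and light root means would then mix directions. Of 1748 genes named by 1 probe symbol, 1565 were tested, and most probes carry no name here. Signal over background was not analysed here, and precision is limited by having 2 arrays an organ.

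Of 22604 probes tested, 1572 (6.95%) differed between dark roots and dark hypocotyls at a Benjamini-Hochberg adjusted p under 0.05 and at least 2-fold, by limma over all 51 arrays. In dark roots 1162 probes were higher (5.14% of those tested) and 410 were lower (1.81%). Among named genes 117 were higher and 32 lower, 9.52% of the 1565. Of the called probes, 1568 had no overlap between the 2 root and the 2 hypocotyl arrays, as had 59.3% of all probes tested, so the absence of overlap alone says little. The calls higher in root had a median difference of 1.75 and a largest of 7.08, and 461 of them reached 4-fold. The calls lower in root were fewer and larger, with a median size of 2.48, a largest of 5.58 and 287 at 4-fold or more. Fitted on the 4 arrays alone no probe passed (4868 had an unadjusted p under 0.05), so every call here draws on the spread of the other groups. The count was 916 without root array 1, 911 without root array 2, 647 without hypocotyl array 1 and 662 without hypocotyl array 2, and 578 after scaling the arrays to a common median absolute value.

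For most called probes the dark root level was nearer to cultured cells than the dark hypocotyl level. Of the 1162 probes higher in dark roots, 674 were below cultured cells in both organs, 136 above in both and 352 on opposite sides, and the median level was -0.32 in roots and -2.12 in hypocotyls. Of the 410 probes lower in dark roots, 211 were above cultured cells in both organs, 30 below in both and 169 on opposite sides, with a median level of 0.04 in roots and 2.58 in hypocotyls. The root level was the nearer to 0 for 875 (75.3%) of the former and 329 (80.2%) of the latter. The same share over all tested probes was not computed, so these shares are not shown to be particular to the called probes. The wider spread of levels on the hypocotyl arrays goes along with this. Scaling all arrays to a common median absolute value kept 505 of the 1572 calls in the same direction and turned the sign of 5. Centring on the named probes moved the median difference of all probes from 0.12 to -0.05 and the share of calls higher in root from 73.9% to 60.9%.

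**Figure D1:**
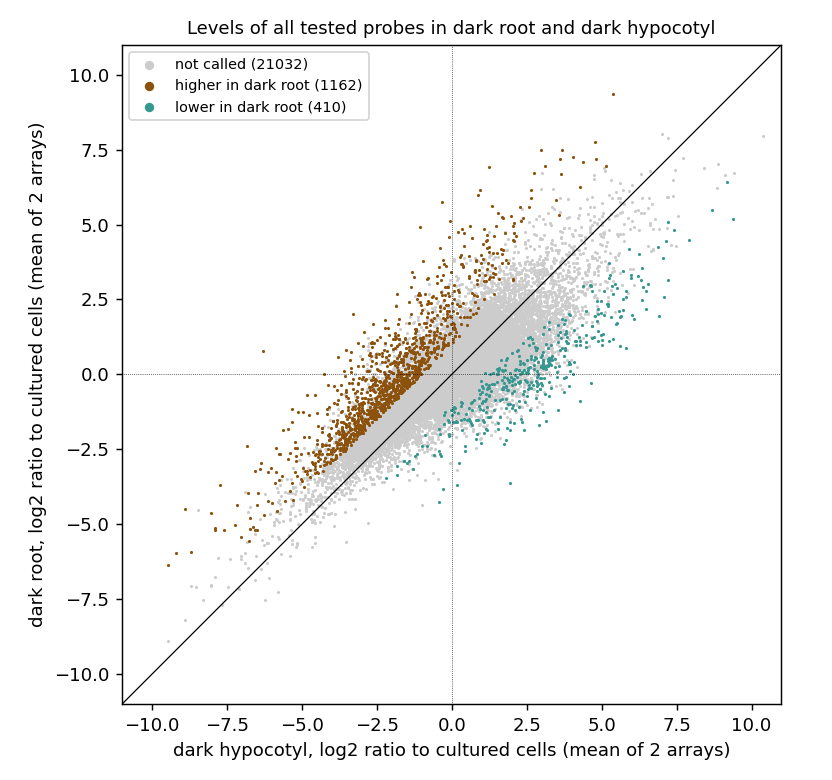
Mean level of each tested probe in dark hypocotyls (horizontal axis) and dark roots (vertical axis), each the log2 ratio to cultured cells over 2 arrays. The 1162 probes called higher in root (brown) lie mainly at hypocotyl levels below 0 and the 410 called lower (green) mainly at hypocotyl levels above 0. The solid line marks equal levels.

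Class III peroxidases held 5 of the 15 named genes with the largest root differences. Of 22 members tested, 8 were higher in dark roots, none was lower and 14 did not pass, and the family median was 0.47, against 0.12 over all probes and 0.25 over named genes. The share called, 36.4%, stands beside 6.95% of all probes. The list was drawn up with earlier results of these data known.

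The largest difference of a named gene belonged to peroxidase AT1G68850. Its levels were 4.99 and 4.70 in dark roots and 0.62 and 0.05 in dark hypocotyls. Both root arrays were far above cultured cells and both hypocotyl arrays close to them. The difference was 4.51 ± 0.86 (n = 2 arrays each), or 22.8-fold, with a limma adjusted p of 0.00113. The value after each ±, here and below, is the SE from the limma fit over all arrays of the series. That SE draws on the spread within the other groups too, and is not the replicate error of the compared arrays alone. Peroxidase AT3G01190 stood at 5.25 and 5.26 in roots and 1.75 and 1.6 in hypocotyls. Replicates lay close together in both organs, and the difference was 3.58 ± 0.57 (adjusted p = 0.000173). For AT5G64100 the levels were 4.57 and 4.33 in roots and 1.29 and 0.98 in hypocotyls, a difference of 3.31 ± 0.63 (adjusted p = 0.00102). These 3 genes kept their calls without each array in turn and after scaling. AT3G01190 and AT5G64100 had their highest level among all 17 organ groups in dark roots, and AT1G68850 ranked second to light roots among 16 groups with a value. That order is not resolved, since the means were 4.85 and 4.86 and the 2 light root arrays read 2.82 and 6.90. The light root level of AT3G01190 was 0.85, on 1 array, far below its dark root level.

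Peroxidase AT2G38380 was near cultured cells in roots, at 0.76 and 0.60, and below them in hypocotyls, at -2.39 and -2.68. The groups were well apart and the difference was 3.21 ± 0.74 (adjusted p = 0.00604), and 0.0642 without hypocotyl array 2. AT5G17820, a peroxidase counted among root markers, read 5.46 and 4.66 in roots and 2.27 and 1.89 in hypocotyls. It was above cultured cells in both organs and higher in roots by 2.99 ± 0.65 (adjusted p = 0.00396), with an adjusted p of 0.0633 without root array 1 and 0.054 without hypocotyl array 2.

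The other 3 peroxidases called were not picked by the naming rule and are given to complete the count. AT4G37520 had levels of 0.87 and 0.24 in roots and -1.80 and -1.82 in hypocotyls, a difference of 2.37 ± 0.40 (adjusted p = 0.00024), and its second probe gave 2.27 ± 0.30. It was called on both probes and without each array. AT5G39580 was among the most abundant of the family relative to cultured cells, at 6.54 and 5.12 in roots and 3.78 and 3.20 in hypocotyls. Its difference of 2.34 ± 0.74 only just passed (adjusted p = 0.0498) and failed without root array 1 (0.415), hypocotyl array 1 (0.129) or hypocotyl array 2 (0.273), while its second probe gave 3.00 ± 0.42 with an adjusted p of 3.05e-05. AT5G66390 was below cultured cells in both organs, at -0.32 and -0.85 against -1.63 and -1.83. Its difference was 1.14 ± 0.34 (adjusted p = 0.0329), and it failed without root array 1 (0.295) or either hypocotyl array (0.109 and 0.201), and after scaling (0.274). Of AT3G49960 the chosen probe lacked a root value, and its second probe was called at 3.10 ± 0.58, from 3.26 and 2.26 in roots and -0.45 and -0.24 in hypocotyls.

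The other members did not pass. AT4G30170 was far above cultured cells in both organs, at 5.36 and 5.33 against 5.36 and 5.30, with a difference of 0.01 ± 0.73. AT2G37130 had its highest level of all 17 groups in dark hypocotyls, at 6.36 and 5.78 against 5.35 and 4.50 in roots. The arrays of the 2 organs did not overlap, but the difference of -1.15 ± 0.69 did not pass (adjusted p = 0.359), nor did that of its second probe, -1.58 ± 0.63 (adjusted p = 0.124). AT5G40150 had the lowest value of the family at -1.41 ± 1.11 and did not pass either. The count of called members was 5 without root array 1 and 4 without hypocotyl array 2, and 7 after scaling, where the family median was 1.08.

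**Figure D2:**
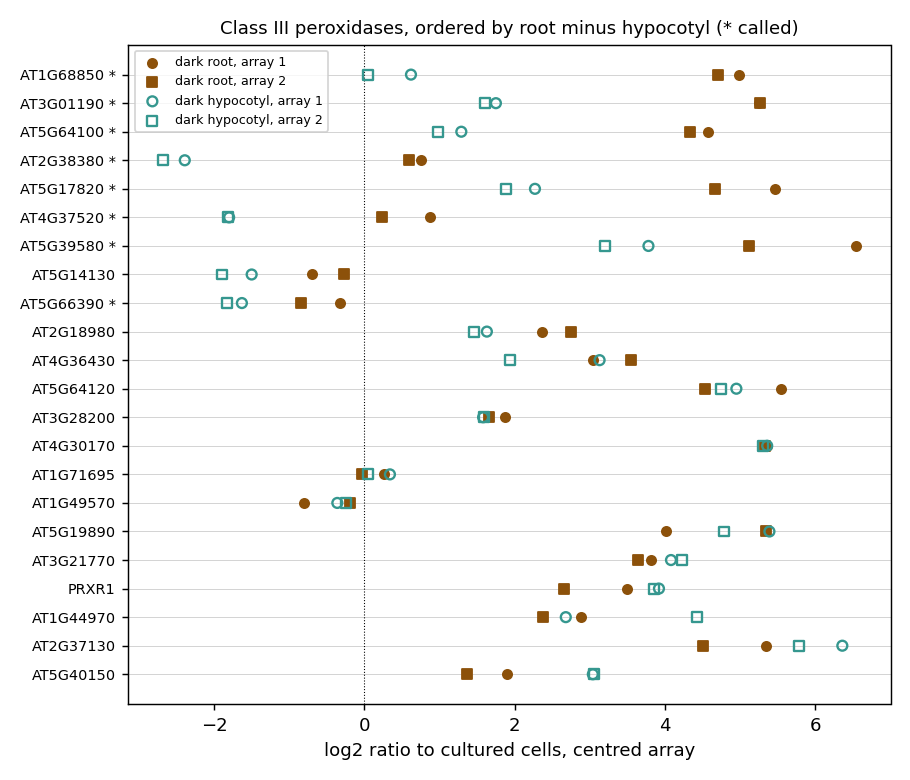
Levels of the 22 tested class III peroxidases on each array, as log2 ratio to cultured cells on centred arrays (horizontal axis), ordered by the difference. Filled brown symbols are the 2 dark root arrays and open green symbols the 2 dark hypocotyl arrays, and a star marks the 8 genes called. The genes run from AT1G68850, 4.51 higher in root, to AT5G40150, at -1.41.

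Markers fixed for the organs were few on the named probes. Of 4 root markers tested, only AT5G17820 was called. PYK10, the beta-glucosidase of root endoplasmic reticulum bodies, stood at 2.32 and 2.11 in dark roots and 3.40 and 3.10 in dark hypocotyls, with a difference of -1.03 ± 0.62 that did not pass. LBD16, a transcription regulator of lateral root formation, was at 0.04 and -0.69 against -0.80 and -0.73, and did not pass at 0.44 ± 0.78. The fourth, AT4G30170, had a difference of 0.01, as given above. The 4 markers had a median level of 3.64 in dark roots, 2.66 in dark hypocotyls and 0.31 in dark cotyledons, and 3 of the 4 did not pass between dark roots and dark hypocotyls. The label of the root arrays rests here on the submitters' words. The peroxidases above cannot back it, since their list was drawn up with earlier results of these data known.

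Of the other 10 genes with the largest root differences, 5 were called without each array in turn. OSM34, an osmotin-like pathogenesis-related protein, was at -0.11 and -0.57 in dark roots and -3.62 and -3.78 in dark hypocotyls. Root arrays lay just under the level of cultured cells and hypocotyl arrays far below it, and the difference was 3.36 ± 0.45 (limma adjusted p = 8.17e-06). AT3G28550, a proline-rich extensin-like wall protein, was the highest of the 15 relative to cultured cells, at 7.20 and 7.3 in roots and 4.26 and 3.83 in hypocotyls, a difference of 3.21 ± 0.59 (adjusted p = 0.000759). NDB2, an alternative NAD(P)H dehydrogenase of the mitochondrial inner membrane, had 0.47 and -0.19 in roots and -2.43 and -2.51 in hypocotyls. Its difference of 2.61 ± 0.31 had the lowest adjusted p of the named genes, 1.31e-06, and dark hypocotyls were its lowest group of all 17. These 3 genes held without each array in turn and after scaling.

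AT5G43450, of the 2-oxoglutarate-dependent oxygenase family, was strongly below cultured cells in both organs, at -2.42 and -2.84 in roots and -5.30 and -5.49 in hypocotyls. Its difference was 2.76 ± 0.46 (adjusted p = 0.000309), and 1.67 after scaling, still called. AT4G33666 read -2.94 and -3.54 against -5.98 and -6.27, a difference of 2.89 ± 0.50 (adjusted p = 0.000325). It was called without each array, but scaling took the value to 1.63 and the adjusted p to 0.0935.

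The remaining 5 of the 15 each lost the call without 1 or more of the 4 arrays. AT5G38070, a RING-type zinc finger protein, was at -1.04 and 4.43 in roots and -2.65 and -2.62 in hypocotyls, so its difference of 4.32 ± 1.34 (adjusted p = 0.0435) came mainly from root array 2, and without that array the adjusted p was 0.629. AT5G24870, also of the RING type, stood at 0.95 and 1.84 against -2.54 and -3.28. The arrays agreed better here, with a difference of 4.31 ± 1.08 (adjusted p = 0.0128), though not called without root array 2 (0.104) or either hypocotyl array (0.0558 and 0.117). AT5G65685 had -0.98 and -0.23 against -3.58 and -3.50, a difference of 2.94 ± 0.81 (adjusted p = 0.0237) that missed the threshold without any one of the 4 arrays (0.0591 to 0.157). AT5G14330 read 4.45 and 2.49 against -0.20 and 1.76. Its 2.69 ± 0.74 (adjusted p = 0.0224) was lost without root array 1 (0.357) or hypocotyl array 1 (0.366). AT2G37980 was at 0.08 and 0.11 against -3.29 and -1.52, and its 2.50 ± 0.71 (adjusted p = 0.0253) was lost without either root array (0.108 and 0.107) or hypocotyl array 1 (0.371). After scaling, AT5G38070 (0.112), AT5G24870 (0.242), AT5G65685 (0.183) and AT2G37980 (0.132) were not called.

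**Figure D3:**
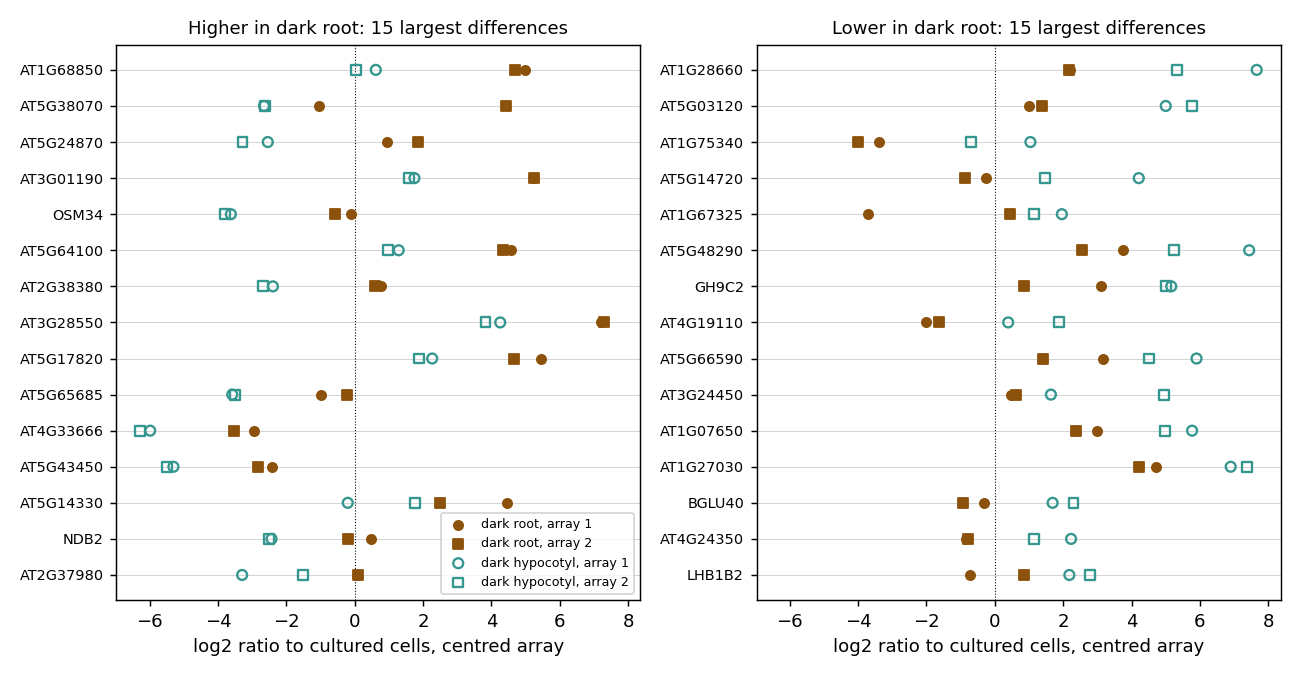
Levels on each array, as log2 ratio to cultured cells, of the 15 named genes with the largest differences higher in dark root (left) and the 15 lower in dark root (right). Filled brown symbols are dark root arrays and open green symbols dark hypocotyl arrays. The groups do not overlap in any gene, by the rule that chose them. Replicates lie closest for AT3G01190 in roots, at 5.25 and 5.26, and are far apart for AT5G38070 in roots, at -1.04 and 4.43.

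Genes of the mitochondrial respiratory chain and ATP synthase, which carry electrons from NADH and succinate to oxygen and make ATP, had 1 of the highest shares of calls among the lists. Of 23 tested, 11 were higher (47.8%, beside 5.14% of all probes), none was lower and 12 did not pass. The median was 0.96 and 21 of the 23 had a value above 0. Dark hypocotyls were the lowest of all 17 organ groups for 16 of the 23 genes (69.6%, beside 11.3% of named genes with a level in every group). These ranks use levels before scaling, where dark hypocotyl arrays were widely spread, and leaf and stem arrays carried the organ in channel 1. Ranks after scaling were not computed. The median level of the 23 was -1.07 in dark roots, -2.22 in dark hypocotyls and -1.40 in dark cotyledons.

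Next to NDB2, the 3 largest members were small subunits of the complexes. AT5G13440, a Rieske iron-sulphur protein of the cytochrome bc1 complex, had levels of -0.89 and -1.25 in dark roots and -2.43 and -3.02 in dark hypocotyls, a difference of 1.66 ± 0.37 (adjusted p = 0.00482, and 0.0634 without root array 1 and 0.104 without hypocotyl array 2). Both organs were below cultured cells and the hypocotyls further. AT5G13430, its near-identical neighbour, gave 1.46 ± 0.44 (adjusted p = 0.0367, and 0.0535 to 0.303 without any one array), and the probes of the pair may not tell the transcripts apart. AT5G18800, a subunit of complex I, was at -1.37 and -1.43 against -2.91 and -3.12, higher in roots by 1.62 ± 0.31 (adjusted p = 0.00104). AT1G51650, the epsilon subunit of ATP synthase, was at -1.21 and -1.78 against -3.11 and -2.93, higher by 1.53 ± 0.27 (adjusted p = 0.000582).

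The other 6 called members lay between 1.04 and 1.44. They include AT3G15640, a subunit of cytochrome c oxidase, at 1.42 ± 0.31 (adjusted p = 0.00379, and 0.101 without root array 1). AT2G20360, a complex I subunit, was at 1.08 ± 0.24 (adjusted p = 0.00444, and 0.0605 without hypocotyl array 2). SDH2-1, the iron-sulphur subunit of succinate dehydrogenase, had an adjusted p of 0.0195 but stayed under 2-fold at 0.96 ± 0.26. Its second probe was over 2-fold, at 1.75 ± 0.6, but did not pass (limma adjusted p = 0.0716). Only 2 members had values below 0, AT3G62790 at -1.40 ± 1.00 and AT5G25450 at -0.69 ± 0.76, and neither passed. NDB2, AT5G18800 and AT1G51650 were called without each array in turn. The number called was 5 without root array 1, 8 without root array 2, 6 without hypocotyl array 1 and 4 without hypocotyl array 2. After centring on named probes it was 6. Scaling left 2 calls, NDB2 and AT3G15640, and a list median of 0.57 beside 0.02 over all probes.

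Calls among cytosolic ribosomal proteins were also all higher in dark roots. Of 37 tested, 6 were higher in dark roots (16.2%, beside 5.14% of all probes and 9.52% of named genes called in either direction), none was lower and 31 did not pass, with a median of 0.83 and 32 values above 0. The large subunit protein AT5G22440 was at -1.78 and -1.99 in roots and -3.78 and -3.83 in hypocotyls, a difference of 1.92 ± 0.31 (adjusted p = 0.000141). Replicates lay close together there, and it was called without each array. AT4G39200, of the small subunit, read -2.03 and -2.69 against -4.08 and -4.35, a difference of 1.86 ± 0.41 (adjusted p = 0.00444), and 0.082 without root array 1 or 0.0623 without hypocotyl array 2. AT1G67430, of the large subunit, was at -1.5 and -1.53 against -3.27 and -3.34. Its 1.79 ± 0.43 (adjusted p = 0.00807) missed the threshold without root array 1 (0.0527) or either hypocotyl array (0.0566 and 0.068). AT3G16780, also of the large subunit, read -1.83 and -0.08 against -2.77 and -3.08. Its 1.97 ± 0.47 (adjusted p = 0.00866) was lost without root array 2 (0.273) or hypocotyl array 2 (0.092).

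Scaling left no ribosomal call and a median of 0.12. Its median level was -2.04 in dark roots, -3.07 in dark hypocotyls and -1.91 in dark cotyledons, all far below cultured cells. The list had 2 calls without root array 1 and 3 without hypocotyl array 2. The largest value of the list, 2.48 for AT3G60770, and the lowest, -1.70 for AT5G27700, did not pass (adjusted p = 0.189 and 0.438). AT3G60770 and AT5G27700 were named after their values were seen.

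Smaller lists held single genes higher in dark roots. With 9.52% of all named genes called, 1 call in a small list says little about that list. Among the thionins and osmotin-like proteins only OSM34 was called of 4 tested, and the thionins THI2.1 and THI2.2 lay on opposite sides, at 2.71 ± 1.04 and -2.19 ± 0.92, neither passing. Among PR-1-like secreted proteins AT4G33720 was higher, at 0.01 and 0.99 in roots and -1.67 and -1.71 in hypocotyls, a difference of 2.19 ± 0.60 (adjusted p = 0.0216). It was lost without root array 2 (0.209) or either hypocotyl array (0.112 and 0.121), and after scaling (0.118). GR1, the cytosolic glutathione reductase, stood at -0.91 and 0.77 against -2.14 and -2.24, a difference of 2.12 ± 0.46 (adjusted p = 0.00396), and 0.169 without root array 2 and 0.0639 after scaling. GR, the organellar form, had 0.26 ± 0.29 and the monodehydroascorbate reductase ATMDAR2 0.11 ± 0.67, and neither passed.

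Of 22 transcription regulators tested, 2 were higher in dark roots and none was lower, with a median of 0.41. The share called, 9.09%, is near the 9.52% of all named genes. WRKY6, a factor of senescence, defence and phosphate responses, was at -1.88 and -2.44 in roots and -4.01 and -4.10 in hypocotyls, a difference of 1.90 ± 0.40 (adjusted p = 0.00272), with 0.0549 without root array 1 and 0.0833 after scaling. BZIP60, a factor of the unfolded protein response in the endoplasmic reticulum, was at -2.14 and -2.58 against -3.52 and -3.71. Its 1.25 ± 0.31 (adjusted p = 0.012) was lost without root array 1 (0.145) or either hypocotyl array (0.0563 and 0.112), and after scaling it was 0.48. ETFBETA, an electron carrier in leucine breakdown, was higher by 1.28 ± 0.30 (adjusted p = 0.0077), from -3.22 and -3.33 against -4.38 and -4.74, while MCCA and MCCB of the same pathway did not pass. Its call was lost without root array 1 (0.0615) or hypocotyl array 2 (0.115), and after scaling, at 0.28.

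Of 7 hypoxia-responsive genes, 1 was higher in dark roots and 6 did not pass, with a median of 0.63. The share called, 14.3%, rests on 1 gene and stands beside 9.52% of all named genes. That gene, AT3G03270, of the universal stress protein family, read -1.18 and -2.64 in roots and -3.54 and -3.97 in hypocotyls. Its 1.84 ± 0.58 passed narrowly (adjusted p = 0.049) and was lost without root array 1 (0.496) or either hypocotyl array (0.133 and 0.265), and after scaling (0.341). AT4G27450 and AT3G10020, strongly below cultured cells in both organs, had 0.07 ± 0.42 and -1.08 ± 0.41 and did not pass. The small heat shock protein genes AT1G53540 and ATHSP22.0 were the furthest below cultured cells, at -6.62 or lower for AT1G53540 on all 4 arrays and -5.39 or lower for ATHSP22.0. Their differences, 0.98 ± 0.83 and 1.23 ± 0.90, did not pass, and after scaling they were -0.88 and -0.48.

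The largest difference of a named gene lower in dark roots belonged to AT1G28660, a GDSL-type lipase. It had levels of 2.19 and 2.17 in dark roots and 7.66 and 5.32 in dark hypocotyls, its highest group of all 17. The root arrays agreed closely and the hypocotyl arrays less so, and the difference was -4.31 ± 1.15 (adjusted p = 0.0176). It was lost without either root array (0.0866 and 0.0862) or hypocotyl array 1 (0.262), and the other 5 GDSL lipases tested did not pass. GH9C2, an endoglucanase of the cellulase family, read 3.10 and 0.84 in roots and 5.16 and 5.0 in hypocotyls. It was above cultured cells in both organs and lower in roots by 3.11 (a difference of -3.11 ± 0.81, adjusted p = 0.0154), and lost without root array 2 (0.27) or either hypocotyl array (0.105 and 0.0843). BGLU40, a beta-glucosidase, was at -0.32 and -0.92 in roots and 1.69 and 2.30 in hypocotyls, its highest group. Its difference of -2.62 ± 0.58 (adjusted p = 0.00467) held after scaling and missed the threshold without root array 2 (0.0622) or hypocotyl array 2 (0.077). AT5G66590, a PR-1-like secreted protein, was at 3.17 and 1.41 against 5.90 and 4.50, a difference of -2.91 ± 0.92 (adjusted p = 0.0483), lost without root array 2 (0.354) or either hypocotyl array (0.361 and 0.0781).

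AT4G19110, a protein kinase, was at -2.0 and -1.63 in dark roots and 0.39 and 1.88 in dark hypocotyls, a difference of -2.95 ± 0.57 (adjusted p = 0.00129). It held after scaling and without 3 of the 4 arrays, and had an adjusted p of 0.07 without hypocotyl array 2. AT1G07650, a leucine-rich repeat receptor-like kinase, read 3.00 and 2.38 against 5.77 and 4.98, its highest group. Its difference of -2.69 ± 0.66 (adjusted p = 0.0107) was lost without root array 2 (0.0979) or hypocotyl array 1 (0.137), and after scaling (0.195). AT5G14720, also a protein kinase, was at -0.25 and -0.86 against 4.21 and 1.47, a difference of -3.40 ± 0.79 (adjusted p = 0.00738), lost without root array 2 (0.0714) or hypocotyl array 1 (0.25) and, narrowly, after scaling (0.0524).

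The remaining genes of the 15 lowest were AT5G03120, AT1G75340, AT1G67325, AT5G48290, AT3G24450, AT1G27030 and AT4G24350, besides LHB1B2 below. AT1G75340, a zinc finger protein, was the lowest of them in roots, at -3.39 and -3.99 against 1.04 and -0.70, a difference of -3.87 ± 0.90 (adjusted p = 0.01) that held after scaling and was lost without root array 2 (0.0775) or hypocotyl array 1 (0.158). AT3G24450 had 0.46 and 0.62 against 1.64 and 4.95, a difference of -2.76 ± 0.59 (adjusted p = 0.00347), and 0.309 without hypocotyl array 2, which held the high value. AT5G48290, like AT3G24450 a heavy-metal-associated domain protein, had 3.76 and 2.55 against 7.44 and 5.23 and passed narrowly at -3.18 ± 0.99 (adjusted p = 0.0498). It was lost without either root array (0.0837 and 0.268) or hypocotyl array 1 (0.442). The 4 others lay between -4.19 and -2.49.

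Of those 4, AT5G03120 read 1.01 and 1.37 against 5.0 and 5.76, and AT1G27030 4.72 and 4.21 against 6.90 and 7.38. Both, and AT4G24350, at -0.85 and -0.78 against 2.23 and 1.14, missed the threshold without any one of the arrays. AT1G67325 had -3.71 and 0.45 against 1.96 and 1.15, and an adjusted p of 0.714 without root array 1 and of 0.248 and 0.106 without hypocotyl array 1 or 2. None of the 15 lowest genes was called without each array in turn, whereas 8 of the 15 highest were. After scaling, 10 of the 15 highest were called and 4 of the 15 lowest, namely AT1G75340, AT4G19110, BGLU40 and AT4G24350.

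Of 7 photosynthesis genes tested, 1 was lower in dark roots (14.3%, beside 6.95% of all probes called in either direction) and 6 did not pass, with a median of 0.30. LHB1B2, a chlorophyll-binding protein of the photosystem II antenna, was at -0.73 and 0.84 in roots and 2.18 and 2.79 in hypocotyls, a difference of -2.43 ± 0.69 (adjusted p = 0.0259). Both organs were at the bottom of the 17 groups, against 7.02 in dark cotyledons, and the call was lost without root array 1 (0.337) or either hypocotyl array (0.0778 and 0.197), and after scaling (0.267). PSAN, a subunit of photosystem I, was at -0.28 and -0.52 against 0.84 and 0.59 and did not pass at -1.12 ± 0.42 (adjusted p = 0.102). PSAE-1 and ATPC1 varied more between the 2 root arrays, 4.72 and 2.14 and 4.44 and 1.66, than between the organs. The median level of the list was 0.06 in dark roots, 1.73 in dark hypocotyls and 6.39 in dark cotyledons.

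In chlorophyll and tetrapyrrole synthesis 1 of 5 genes was lower in dark roots (20.0%, beside 9.52% of named genes called in either direction). CHLM, the magnesium-protoporphyrin methyltransferase, had -0.42 and -1.18 in roots, its lowest group of 17, and 0.98 and 0.86 in hypocotyls, a difference of -1.72 ± 0.41 (adjusted p = 0.00859). It stayed called after scaling (0.0467) and was lost without root array 2 (0.129) or either hypocotyl array (0.0765 and 0.0532). PORB, the protochlorophyllide oxidoreductase, was at 3.74 and 2.92 against 3.06 and 3.04 and did not pass. None of 8 other thylakoid and photorespiration genes passed, where 9.52% of all named genes were called. CaS, a thylakoid calcium-sensing protein, had the largest value of these, -3.14 ± 1.6, from 0.17 and 1.06 in roots and 3.42 and 4.08 in hypocotyls (adjusted p = 0.271). CaS was named after its values were seen.

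Seed, late embryogenesis and cold genes all had values below 0 in dark roots relative to dark hypocotyls. None of the 8 tested passed, where 9.52% of all named genes were called. Their median was -1.12, against 0.12 over all probes, and they ranged from -2.05 to -0.50. OLEO3, an oleosin of oil bodies, was at 2.30 and 0.90 in roots and 2.84 and 4.46 in hypocotyls, with a difference of -2.05 ± 1.01 (adjusted p = 0.244). The late embryogenesis genes LEA, AT3G15670 and AT3G17520 had their highest level of all 17 groups in dark hypocotyls, with differences of -1.59 ± 0.98, -1.36 ± 0.66 and -0.92 ± 1.10. After scaling, the median was -0.65 and 1 of the 8 lay above 0. These examples were picked after their values were seen.

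Among expansin-like, xyloglucan and cellulose-active wall enzymes GH9C2 alone was called. Of 7 tested, 1 was lower in dark roots (14.3%, beside 9.52% of all named genes called). The median was -0.66, and 1 had a value above 0. The xyloglucan enzyme XTH32 was at 0.33 and 0.58 in roots and 1.91 and 1.47 in hypocotyls (-1.23 ± 0.71, adjusted p = 0.335), and the expansin-like EXLA1 at -0.66 ± 0.38. COB, a regulator of cellulose orientation, was at 0.06 ± 0.29. Of the beta-glucosidases only BGLU40 was called of 6 tested (16.7%, beside the same 9.52%). BGLU46 had 2.55 ± 0.81 with an adjusted p of 0.0507 and unlike root arrays, at -0.92 and 2.13.

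In the vacuolar ATPase, which acidifies the vacuole, 1 of 4 subunits was lower in dark roots. That share, 25.0%, stands beside 9.52% of named genes called in either direction. The other 3 did not pass, all 3 with values above 0. AT3G42050, subunit H, read -1.46 and -1.81 in roots and -0.08 and -0.44 in hypocotyls, a difference of -1.38 ± 0.32 (adjusted p = 0.00606), while AVA-P2, a proteolipid subunit, was at 0.94 ± 0.36. The call of AT3G42050 held after scaling and was lost without root array 2 (0.0764) or hypocotyl array 1 (0.0966). No member was called among 10 UDP-glycosyltransferases (median 0.70), 7 tubulins and actins (median -0.13), 5 genes of auxin response and conjugation (median 0.16), 5 cell cycle and histone genes (median -0.37) or 4 glutathione transferases (median 0.12). With 9.52% of all named genes called, lists this small may hold no call and are not shown to be unchanged. The cuticle gene AT5G33370, the 1 shoot cuticle gene tested, did not pass at -0.58 ± 1.09.

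**Figure D4:**
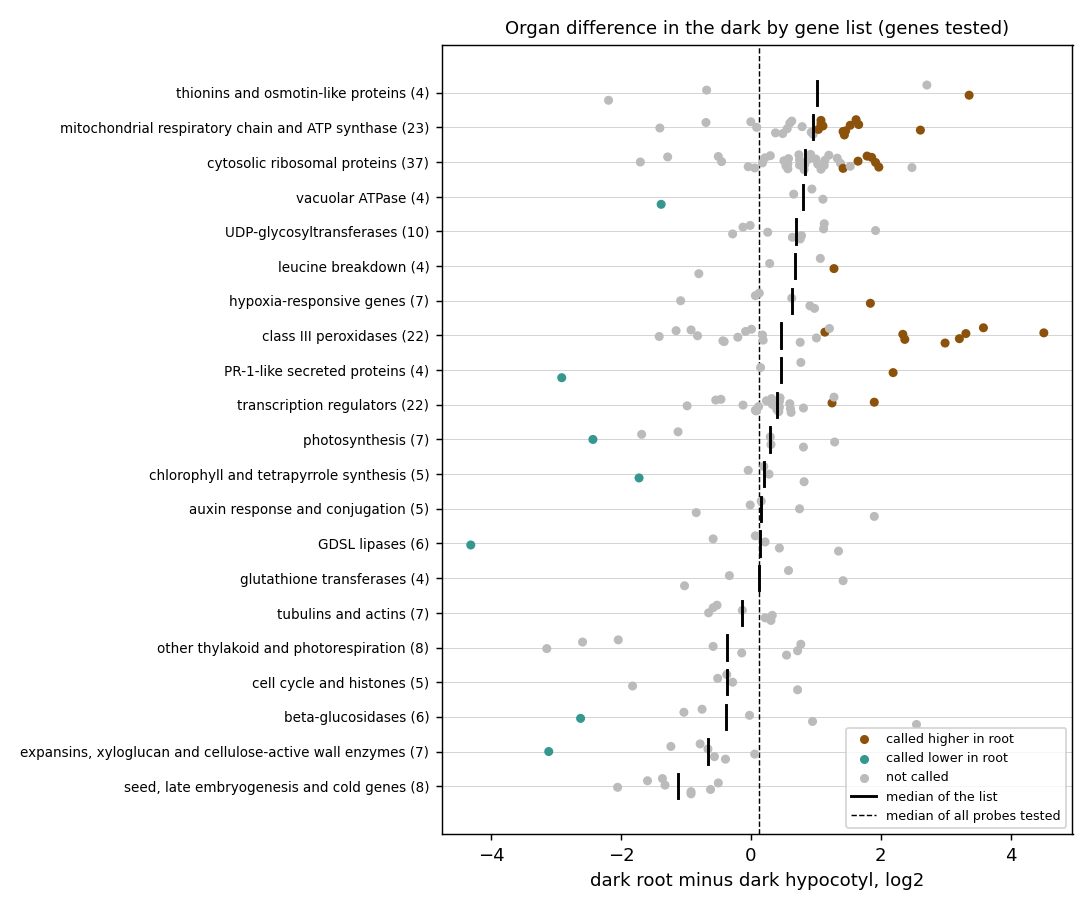
Difference between dark root and dark hypocotyl (log2, horizontal axis) for each tested gene of the lists with 4 or more genes tested, except the root markers. Brown points were called higher in root, green points lower and grey points not called, the black bar is the list's median and the dashed line the median of all probes tested, 0.12. The mitochondrial list (median 0.96) and the ribosomal list (0.83) sit to the right of the line with few values below 0, and the seed and late embryogenesis list (-1.12) lies wholly to its left.

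The same organs were also measured in light, on other arrays. Of 14430 probes tested there, 3491 (24.2%) differed between light roots and light hypocotyls, 44.2% of them higher in roots, or 11.5% with uncentred values. One of the 2 light root arrays has the organ in channel 1, both carry the number 1 in their labels and may hold the same RNA, and the 2 light hypocotyl arrays had fewer values and correlated at 0.625, so dye and organ are not balanced there. Of the 117 named genes higher in dark roots, 103 were tested in light: 42 were called higher in light roots too, 5 lower, and 56 did not pass. Of the 32 lower in dark roots, 17 were tested in light: 6 were lower there too, 2 higher and 9 did not pass. Averaging the 2 light root arrays left 2246 calls.

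Of 13 peroxidases tested in light, 5 were higher in light roots and 2 were lower, AT1G71695 at -1.64 and PRXR1 at -1.20. AT5G17820 was higher in light roots by 3.79, AT5G64100 by 1.96, AT4G37520 by 1.98 and OSM34 by 2.78, all called, and AT2G38380 had 1.69, not called. Light differences for AT1G68850 and AT3G01190 could not be tested. AT3G01190 had 1 light root value, 0.85, beside 0.46 and 0.48 in light hypocotyls, so its large dark difference was not seen there. AT1G68850 read 2.82 and 6.90 in light roots and had no light hypocotyl value. AT3G28550 was higher in light roots by 4.54 and NDB2 by 1.85. Of 21 mitochondrial genes tested in light, 14 were higher and 1 lower, with a median of 1.55. Among all 1069 named genes tested in dark and light, 152 were higher in light roots and 147 lower, with a median of 0.04. The 3 photosynthesis genes tested in light, LHCB4.2, LHCB4.1 and PSAN, were lower in light roots, with values of -4.90, -3.24 and -4.07.

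The difference between the dark and the light comparison was itself tested for 13235 probes, of which 1885 (14.2%) passed, 75.1% of them with a higher value in the dark, or 94.5% with uncentred values. Among named genes, 23 of the 103 higher in dark roots and 8 of the 17 lower passed with the sign of their dark difference. Of the 17, 1 passed with the opposite sign, CHLM, at -1.72 in the dark and -3.78 in light. Both sets were chosen by dark values that this test uses again, so calls of the same sign were favoured beforehand. AT5G43450 was higher in dark roots by 2.76 and had -0.86 in light, where it did not pass, and the difference between the comparisons was 3.62. AT1G07650 was lower in dark roots, at -2.69, and higher in light roots, by 1.80. For GH9C2 the values were -3.11 in the dark and 0.59 in light.

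**Figure D5:**
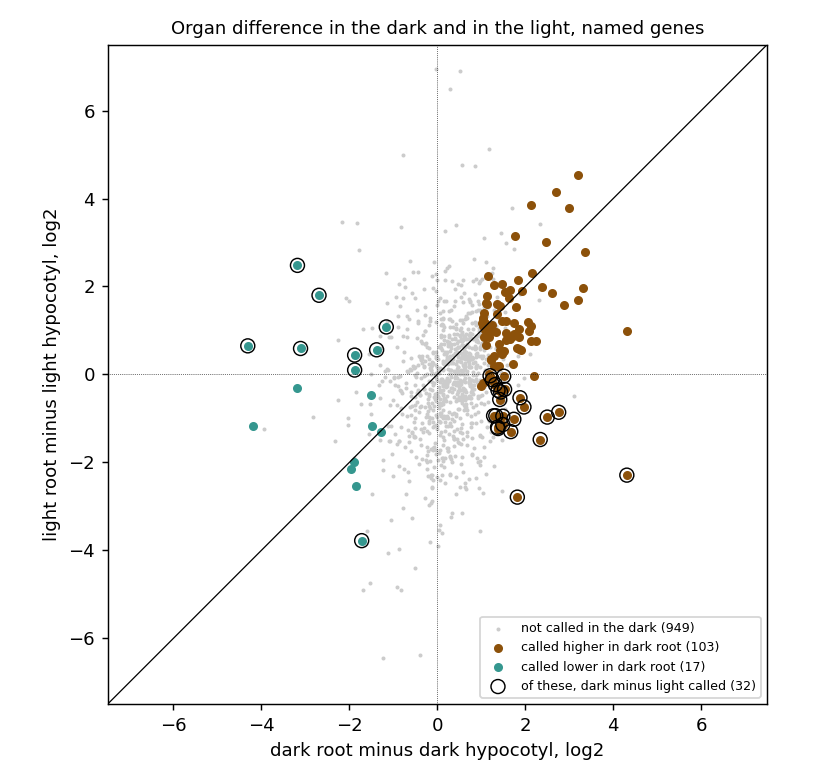
Root minus hypocotyl in the dark (horizontal axis) and in light (vertical axis), both log2, for named genes tested in both. Brown and green points were called higher (103) or lower (17) in dark roots, and black rings mark those whose dark minus light difference was called. Ringed brown points lie below 0 on the light axis, and AT5G24870 is furthest out at 4.31 in the dark and -2.29 in light.

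Most of the called probes, 1419 of the 1568 without overlap, carry no name here. The largest differences of all were on such probes. Probe 3254931 was at 1.85 and -0.27 in dark roots and -6.60 and -5.98 in dark hypocotyls, a difference of 7.08 ± 1.27 (adjusted p = 0.000838). Probe 3222839 read 4.47 and 7.01 against -0.72 and 0.11, a difference of 6.05 ± 1.18. In the other direction, probe 3256717 was at -2.66 and -4.60 against 3.46 and 0.43 (-5.58 ± 1.09), and probe 3214573 at -1.93 and 0.16 against 4.27 and 4.28 (-5.15 ± 1.29).

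A further estimate of the dark root level came from the arrays that set light roots directly against dark roots. Subtracting the mean of these 2 arrays from the light root level gave a dark root level that does not use the 2 dark root arrays, a choice made after the data were seen. On it 1124 probes were called, and 673 of the 1572 were among them in the same direction, while 24 had the opposite sign. All 12 of the 15 highest named genes and all 15 lowest for which it could be computed had the same sign. Of these, 9 of the 12 and 4 of the 15 were called. AT1G68850 came to 4.22, OSM34 to 4.03, NDB2 to 3.02 and GH9C2 to -3.35, all called. AT5G03120 came to -1.86 in place of -4.19, AT4G19110 to -1.39 in place of -2.95 and AT5G38070 to 2.30 in place of 4.32, and none of these was called. The dark hypocotyl arrays are shared by both estimates.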

How the data were processed

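For each two-colour array the authors deposited log2 ratios of its 2 channels, organ and reference being as the labels name them. Image analysis, background treatment, normalization, array design and genome build are not given in the sources used here. The table held 27648 probes, of which the 17 spots of each of 3 control accessions were averaged, so that 27600 were analysed. The lowest ratio deposited was 0.001.

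Groups were taken from the titles. Each array was centred on its median and 1 mean per group was fitted over all 51 arrays (45 against cultured cells in 17 groups, 6 direct) with limma 3.58.1 in R 4.3.3, lmFit and eBayes. P-values are two-sided, adjusted by the Benjamini-Hochberg method within a comparison. Testing required 2 or more values per group. A call needed a 2-fold or larger difference with its adjusted p below 0.05. The fit was tested on simulated data.

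Of 2676 annotated probes, 2032 carry 1 symbol, 644 several, and 2029 of the former matched a RefSeq gene (TAIR10.1, used for names alone). Leaving out 197 probes of genomic clones or shared accessions, 1784 probes name 1748 genes. A gene with several probes takes the one with most values. Named are the 15 highest and 15 lowest genes called without overlap, the 4 largest called members of each list and every member of lists of 3 or fewer. Some further list members are named to complete a count or as examples, with their values seen. Members, lists and comparisons were chosen with earlier results of these data known. Alternatives were other centring and scaling, the arrays fitted, the replicate block, low ratios, the minimum of values, leaving out each array, and dark roots through the direct arrays.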

Additional observations from a re-analysis of the deposited data

Results flagged for a closer look

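For 14 of the genes picked by the naming rule, 38 of which were tested, a test of the difference between the dark and the light organ difference (limma, Benjamini-Hochberg adjusted p under 0.05, at least 2-fold, 2 arrays a group) passed. Over all genes with a name, it passed for 160 of 1069. Most genes picked by the rule were chosen for large dark differences, which this test contains, so the shares cannot be compared. The values that follow are root minus hypocotyl in the dark minus the same in light, in log2, and they rest on the 2 light root arrays described above.

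Values above 0 belonged to 9 genes. The RING-type gene AT5G24870 had 6.60, from 4.31 in the dark and -2.29 in light. The small heat shock protein gene AT1G53540 had 4.56, with a dark difference that did not pass and a light difference of -3.57. AT5G43450, of the 2-oxoglutarate-dependent oxygenases, had 3.62 and AT2G37980 had 3.47. The ribosomal protein gene AT3G16780 had 2.71, ETFBETA of leucine breakdown 2.22, CHLM of chlorophyll synthesis 2.06, the glutathione reductase GR 1.61 and the transcription factor BZIP60 1.37.

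Values below 0 belonged to 5 genes. The heavy-metal-associated domain gene AT5G48290 had -5.66, from -3.18 in the dark and 2.48 in light. The GDSL-type lipase AT1G28660 had -4.96, the receptor-like kinase AT1G07650 -4.49, the endoglucanase GH9C2 -3.70 and the vacuolar ATPase subunit AT3G42050 -1.94.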

How the results depend on the processing

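The 1572 calls between dark roots and dark hypocotyls ran from 647 to 916 when 1 array was left out. They were 578 after scaling to a common median absolute value and 0 on the 4 arrays alone, where no probe passed by limma and 4868 had an unadjusted p under 0.05. They stayed within 1.5 times under no centring (1306), centring on named probes (1399), low ratios set missing (1576), at least 1 value a group (1700) and dark roots through the direct arrays (1124, chosen after seeing the data). The share higher in root was 85.2% without root array 2 and 61.2% without hypocotyl array 2, against 73.9%. The replicate block gave 1590 calls, 1538 of them among the 1572. The labels do not say whether equal numbers pair the samples. Deviations of same-numbered arrays correlated at 0.0163 over 22604 probes, so they shared little, but that cannot tell whether the samples were paired. The 3491 light calls were 2246 with the light root arrays averaged, and 2354 to 3874 with 1 array left out. The share higher there was 58.3% without the light root array with the organ in channel 2 and 31.2% without the other. The 1885 calls of dark against light were 1180 with those arrays averaged and 4089 uncentred. Of the 50 genes picked by the naming rule, the 45 called in the dark kept their sign under every alternative, and the uncalled AT1G53540, ATHSP22.0 and ATMDAR2 did not. The cause of these shifts was not tested, apart from fewer arrays in the fits that leave some out. With 2 arrays an organ and no signal over background, dim probes and single arrays cannot be set apart further.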
